A study of Mus musculus with 30 samples.

Results

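The change of the genotype effect between postnatal day 10 (P10) and week 11 was measured in the cerebellum of female knock-in mice of spinocerebellar ataxia type 7 (SCA7 KI) and of wild-type (WT) females. It is the difference between KI and WT mice at week 11 minus the same difference at P10. A positive change means that a transcript stood higher in KI relative to WT mice at week 11 than at P10, whatever both genotypes did with age. The contrast used 21 of the 30 mice of the series, namely 5 WT and 5 KI mice at P10 and 5 WT and 6 KI mice at week 11. The 9 mice of day 22 were left out. All 4 groups were named from the titles of the samples, which give genotype, age and a number for each mouse. Each sample was the frozen cerebellum of 1 mouse, taken after decapitation at P10 and after cervical dislocation at week 11, so age and the way of killing cannot be told apart, while KI and WT mice of 1 age shared it. The background strain and the repeat length of the knock-in allele are not given in the sources used here. Amplified RNA of each mouse was labelled with Cy5 and hybridised on a 60-mer array against a Cy3-labelled pool of all the P10 animals of both genotypes, with no dye swap.

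Spinocerebellar ataxia type 7 is caused by an expanded CAG repeat in the gene of ataxin-7, a subunit of the SAGA complex, which acetylates histones and removes ubiquitin from them. The expanded protein carries a long glutamine tract, forms nuclear inclusions, and harms Purkinje cells and the retina. In the mouse, granule neuron precursors still divide at P10 and Purkinje dendrites and myelin are still growing, whereas the cerebellum is mature at week 11, so a comparison of these ages asks whether the effect of the allele differs between a developing and an adult cerebellum.

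Levels below are log2 ratios of a mouse to the P10 pool, differences are in the same log2 unit, and a probe passed when its p-value from limma, adjusted after Benjamini and Hochberg over all 33554 probes tested, was under 0.05. The cerebellar markers Pcp2, Car8 and Calb1 of Purkinje cells and Gabra6 and Cbln3 of granule neurons were well above background on all 21 arrays. The share of probes well above background in Cy5 ran from 68.57% to 89.68% over the arrays. RNA of neighbouring tissue was measured too: Ttr, the transthyretin of choroid plexus, and Slc6a2, the noradrenaline transporter, were well above background on all 21 arrays, and Hoxa2, a hindbrain patterning gene, on 9 of them. The arrays lay on 7 slides, none of which held both ages, and 6 of which held both genotypes.

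The arrays labelled KI 21 and WT 20, both of week 11 and on slide 5, went against their labels. Each array of slide 5 was placed on a scale with 0 at the mean of the other WT mice and 1 at the mean of the other KI mice, over the 85 probes that passed between KI and WT mice at week 11 when slide 5 was left out. The array labelled KI 19 lay at 0.69 and that labelled WT 18 at 0.21, but the array labelled KI 21 lay at 0.13 and that labelled WT 20 at 0.75. Such a reading is noisy. With the 100 probes of smallest p in place of the passing ones, and every slide read in turn, 7 of 21 mice lay nearer to the other genotype. All 4 arrays of slide 2 and all 3 of slide 8 lay on the KI side, and slide 5 was the only slide with a KI array on the WT side and a WT array on the KI side. The array labelled KI 21 also had the lowest median Cy5 intensity (135.1) and the lowest array weight (0.409) of the 21, and its mean over the cell cycle genes, -1.77, lay outside the -2.72 to -2.34 of the other 10 mice of week 11. A weight falls with distance from the labelled group, so it is not separate evidence. KI 19 (0.455) and WT 23 (0.481) of week 11 had weights nearly as low, and WT 20 had 1.226. Whether the signal of KI 21 played a part in its position was not tested. The labels were kept as deposited, and results are given with all 21 mice and, where they differ, without this pair or without slide 5. The pair was picked from measured values, after each of the 21 mice and each of the 7 slides had been left out in turn, so p-values without it are not independent evidence.

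With all 21 mice no gene passed for a changed genotype effect. Of the 33554 probes, 0 passed (0%), and the lowest adjusted p was 0.868. At an unadjusted p under 0.05 there were 1614 probes (4.81%), 652 with a positive change (1.94%) and 962 with a negative one (2.87%). The change reached 2-fold in 76 probes (0.227%). The 95% interval of the change had a median half-width of 0.43 log2 units, with quartiles of 0.34 and 0.57, before any adjustment for the number of probes tested, so a change had to be larger than this to pass. Neither age passed alone: limma gave 0 probes at P10 with 2317 (6.91%) at an unadjusted p under 0.05, and 0 at week 11 with 1465 (4.37%). Single slides and mice decided these counts: 8 probes passed at P10 without slide 2, and at week 11, 3 passed without KI 21, 7 without WT 20 and 1 without WT 23. Across probes the KI minus WT difference at P10 and that at week 11, which share no mice, had a Pearson correlation of 0.037, and both share the reference pool and the array design.

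**Figure D1:**
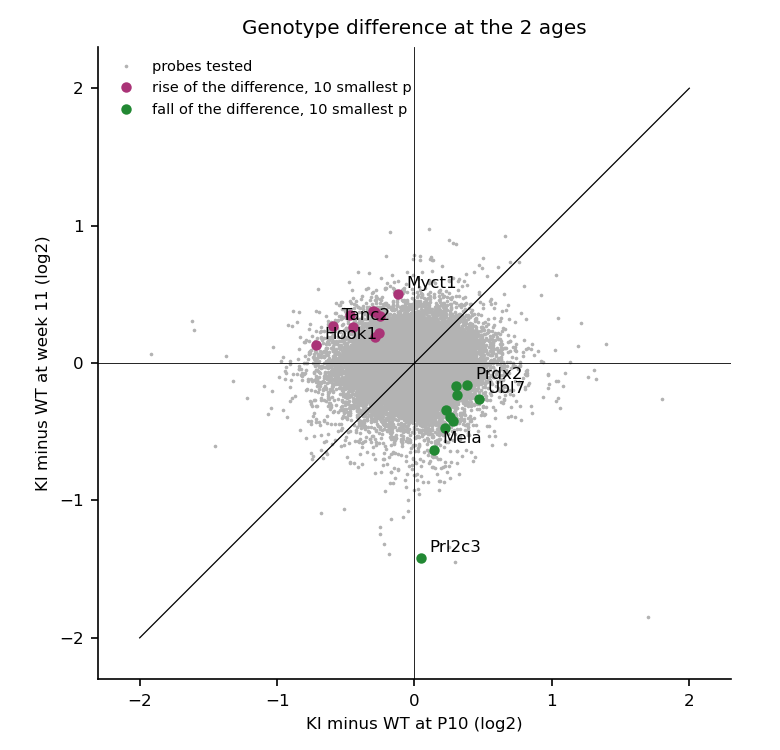
Difference between KI and WT mice at P10 (x axis) against that at week 11 (y axis), both in log2 units, for all probes tested, with the ranked genes coloured and some of them named. Genes with a positive change lie to the upper left and genes with a negative change to the lower right, and the cloud as a whole has a correlation of 0.037.

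Many transcripts differed between P10 and week 11, in both genotypes in the same direction. Age, slide and the way of killing cannot be told apart in this comparison. From P10 to week 11, 9647 probes passed in WT mice (28.8%) and 12137 in KI mice (36.2%). Of these, 7532 passed in both with the same direction, which was 78.1% of the WT list and 62.1% of the KI list, and 0 passed in opposite directions. The fit took arrays as independent, but arrays of 1 slide had a consensus correlation of 0.402 and no slide held both ages. The p-values behind these counts can therefore be too small, and the counts too high. The age changes of WT and KI mice had a correlation of 0.891 across probes. They come from different animals but share slides and the reference pool, so slide effects can add to it. Among the 2413 probes that passed with a 2-fold or larger change in WT mice, the median change in KI mice was 92.7% of that in WT mice. In the other direction, the median WT change was 89% of the KI change over the 2751 probes chosen in KI mice in the same way, so the shortfall followed the genotype in which the probes were chosen.

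**Figure D2:**
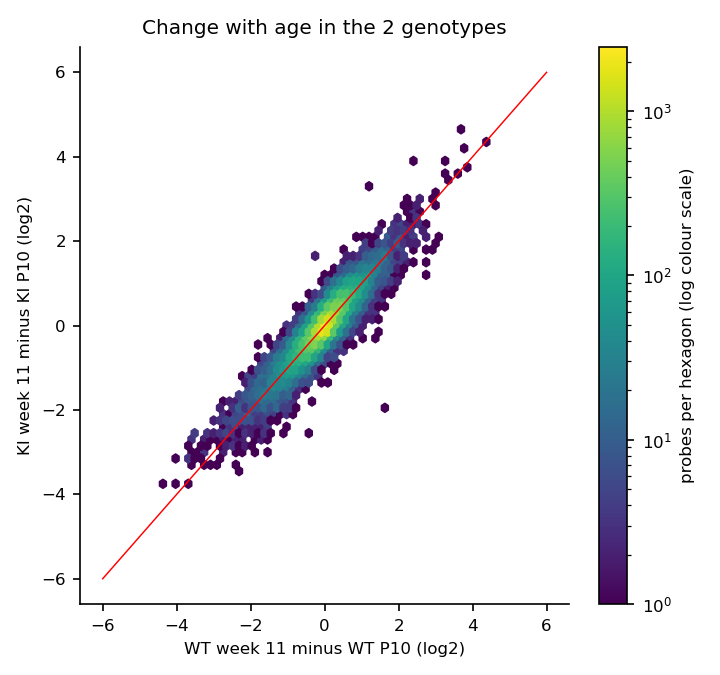
Change from P10 to week 11 in WT mice (x axis) against that in KI mice (y axis), in log2 units, as the density of all probes tested, with the line of equal change in red. The probes lie along the line, with a correlation of 0.891, and the change of the genotype effect is the vertical distance from it.

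The ataxin-7 transcript itself did not differ between genotypes beyond the spread of the mice at either age. The knock-in lengthens the repeat in Atxn7 and does not remove the gene, so its level does not check the labels. The first 30 bases of its probe, at chr14:11922707-11922766 on the plus strand of build mm7, are shown since the allele lies in this gene.
Atxn7: tatagcgctgttgaggaatagtacactgag
In WT mice at P10, Atxn7 stood at -0.42 (WT 1), -0.22 (WT 2), 0.38 (WT 5), -0.71 (WT 7) and -0.07 (WT 10), and in KI mice at -0.38 (KI 3), -0.56 (KI 4), -0.50 (KI 6), -0.52 (KI 8) and -0.40 (KI 9). At week 11 it stood at 0.97 (WT 18), 0.81 (WT 20), 1.13 (WT 23), 0.26 (WT 32) and 0.66 (WT 33), and in the 6 KI mice from -0.01 to 1.05 with a median of 0.61. Every week 11 mouse except KI 21 stood above the pool, and the groups overlapped at both ages. The genotype difference was -0.26 ± 0.20 (SE) at P10 and -0.16 ± 0.19 at week 11. The change of 0.11 ± 0.27 had a 95% interval from -0.46 to 0.68, an exact permutation p of 0.719 (two-sided, genotypes exchanged within each age, 116424 splits) and turned to -0.04 with slide as a block.

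The 10 genes ranked first by p among positive changes were Myct1, Rbm5, Gigyf2, Kdm3a, Hook1, Dock10, Tanc2, Smurf2, Ulbp1 and Coq10a. Their changes lay between 0.48 and 0.86, none passed (adjusted p = 0.868 each), and they are described because they head the ranking. In all 10 the KI mean of the ranked probe lay below the WT mean at P10 and above it at week 11. The ranking favours such a reversal. Another probe of Gigyf2 and another of Tanc2 each had a P10 difference of 0.05. Other probes of Hook1 and Dock10 had week 11 differences of -0.12 and -0.18. The KI and WT mice did not overlap in 4 of the 10 genes at P10, where every KI mouse lay below every WT mouse in 0.808% of all probes. They overlapped in all 10 at week 11, where every KI mouse lay above every WT mouse in 0.17% of probes. Dim signal limited some: 4 of the 20 genes ranked in both directions, Ulbp1, Coq10a, Prl2c3 and D430042O09Rik, had a group in which no array was well above background, so that group's level is only a bound.

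Myct1, a target gene of the transcription factor Myc, is shown with the first 30 bases of its probe, at chr10:4741912-4741971 on the minus strand of mm7.
Myct1: ataggctcgtgaaagctgaacattaccgat
At P10, Myct1 stood at 0.11 (WT 1), 0.15 (WT 2), -0.07 (WT 5), 0.11 (WT 7) and 0.13 (WT 10), and at 0.05 (KI 3), 0.06 (KI 4), -0.15 (KI 6), -0.04 (KI 8) and -0.10 (KI 9). At week 11 it stood at -0.91 (WT 18), -0.32 (WT 20), -0.89 (WT 23), -0.71 (WT 32) and -0.99 (WT 33), against -0.51 to -0.03 in KI mice with a median of -0.27. The week 11 groups overlapped only through the array labelled WT 20, the highest of its group, which lay above that labelled KI 21, the lowest of its own, and above KI 22. The genotype difference went from -0.12 ± 0.11 (SE) at P10 to 0.50 ± 0.11 at week 11, a change of 0.62 ± 0.16.

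Rbm5, an RNA-binding regulator of splicing, had a change of 0.68 ± 0.17 (SE). Its P10 levels ran from -0.53 to -0.10 in WT mice and from -0.84 to -0.44 in KI mice, and its week 11 levels from -0.48 to -0.08 and from -0.19 to 0.40. Gigyf2, a partner of the cap-binding protein 4EHP in the repression of translation, was lower in every KI mouse at P10, at -0.61 to -0.47 against -0.34 to -0.06 in WT mice. At week 11 its KI mice ran from -0.45 to 0.30 and its WT mice from -0.76 to -0.23, for a change of 0.66 ± 0.17. Hook1, which links cargo to the motor dynein, also lay lower in every KI mouse at P10, with a KI minus WT difference of -0.72 ± 0.17, and had a difference of 0.13 ± 0.15 at week 11. For Hook1 the WT P10 group held 3 usable spots. The change was 0.71 ± 0.18 for Kdm3a, which removes methyl groups from lysine 9 of histone H3, 0.82 ± 0.23 for Smurf2, a ubiquitin ligase of transforming growth factor beta signalling, and 0.86 ± 0.24 for Tanc2, a postsynaptic scaffold. It was 0.59 ± 0.16 for Dock10, a guanine nucleotide exchange factor, 0.48 ± 0.13 for Ulbp1, a ligand of the NKG2D receptor of natural killer cells, and 0.48 ± 0.14 for Coq10a, a mitochondrial coenzyme Q-binding protein.

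**Figure D3:**
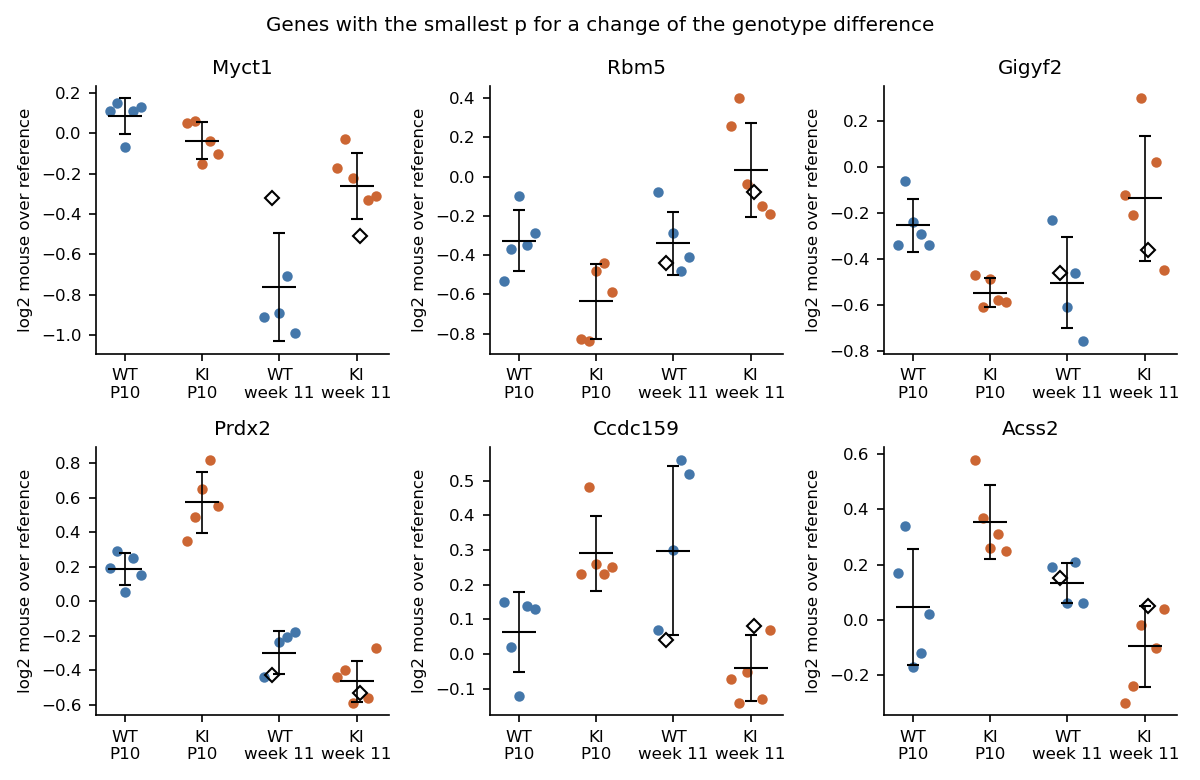
Log2 ratio to the P10 pool of each mouse for 3 genes with a positive change (Myct1, Rbm5, Gigyf2) and 3 with a negative one (Prdx2, Ccdc159, Acss2), by genotype and age, with group means and SDs. In each gene the order of the KI and WT means at week 11 is the reverse of that at P10, which the ranking favours, and none passed with all 21 mice.

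The 10 genes ranked first among negative changes were Prdx2, Mela, BB124205, Ankef1, Prl2c3, Ccdc159, Acss2, D430042O09Rik, Ldb3 and Ubl7, with changes between -1.47 and -0.47 (adjusted p = 0.868 each). In all 10 the KI mean of the ranked probe lay above the WT mean at P10 and below it at week 11, again as the ranking favours. For Prl2c3 the P10 difference was only 0.05, and its other probes had P10 differences of -0.22 and -0.09. Another probe of Ldb3 had -0.1 at P10. The groups were apart in 4 of the 10 genes at P10, where every KI mouse lay above every WT mouse in 0.802% of all probes. They were apart in 2 at week 11, Acss2 and Ldb3, where every KI mouse lay below every WT mouse in 0.224% of all probes. Of the 20 ranked genes, 15 had other probes on the array, and all 26 of those probes had a change of the same sign, 12 of them with an unadjusted p under 0.05, against 4.81% of all probes. They read the same genes in the same mice and so are no independent support.

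Prdx2, a peroxiredoxin that reduces hydrogen peroxide, led the negative changes, and the first 30 bases of its probe, at chr8:83556603-83556662 on the plus strand of mm7, are shown for that reason.
Prdx2: cacggagatcatcgcttttaggaccatgct
At P10, Prdx2 stood at 0.19 (WT 1), 0.29 (WT 2), 0.05 (WT 5), 0.25 (WT 7) and 0.15 (WT 10), and at 0.35 (KI 3), 0.49 (KI 4), 0.65 (KI 6), 0.82 (KI 8) and 0.55 (KI 9). At week 11 it stood at -0.44 (WT 18), -0.43 (WT 20), -0.24 (WT 23), -0.21 (WT 32) and -0.18 (WT 33), against -0.59 to -0.27 in KI mice with a median of -0.49. Every KI mouse lay above every WT mouse at P10, and the groups overlapped at week 11. The difference went from 0.38 ± 0.09 (SE) to -0.16 ± 0.09, a change of -0.55 ± 0.13, and its other probes had changes of -0.41 and -0.39.

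Acss2, which makes acetyl-CoA from acetate in cytosol and nucleus, ran at P10 from -0.17 to 0.34 in WT mice and from 0.25 to 0.58 in KI mice. At week 11 its KI mice, at -0.30 to 0.05, all lay below its WT mice, at 0.06 to 0.21, by the last digit printed. The change was -0.54 ± 0.14 (SE). Ldb3, a LIM domain-binding protein of the muscle Z-disc, had WT mice at 0.11 to 1.02 and KI mice at -0.35 to 0.08 at week 11, and a change of -0.69 ± 0.19. Ccdc159, a coiled-coil protein gene, was higher in every KI mouse at P10, at 0.23 to 0.48 against -0.12 to 0.15, and had a change of -0.56 ± 0.14. Mela, a melanoma antigen gene, had -0.77 ± 0.19, Ankef1, an ankyrin repeat gene, -0.64 ± 0.16, and Ubl7, a ubiquitin-like gene, -0.73 ± 0.20. The changes of BB124205 and D430042O09Rik were -0.69 ± 0.17 and -0.47 ± 0.13.

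The arrays labelled KI 21 and WT 20 decided how many probes passed. Without them, 4 of 33262 probes passed for the change (0.012%), with 2399 (7.21%) at an unadjusted p under 0.05: Prl2c3, Opn3 and Serpinb1a fell in KI relative to WT mice between the ages, and Myct1 rose. At week 11 alone, 104 probes passed (0.313%), 46 higher and 58 lower in KI mice, a count that ran from 18 to 1724 under 16 other settings and from 32 to 113 with 1 further mouse left out, the lowest without KI 15 or KI 16. At P10 limma gave 0 with 2381 (7.16%) at an unadjusted p under 0.05. Without all 4 arrays of slide 5, also 4 of 31763 probes passed for the change (0.0126%), namely Opn3, Traf1, Prl2c3 and Serpinb1a, all lower, and 85 passed at week 11 (0.268%). Opn3, Serpinb1a and Traf1, and below Irf7, Rtp4, Irgm1, Agt, Bst2 and Ifit1, were chosen after their values were seen. The probes of Prl2c3, Opn3, Serpinb1a and Irf9 start as follows on mm7, at Un_random:1010745-1010804 (plus strand), chr1:175628975-175629034 (minus), chr13:32208400-32208459 (minus) and chr14:50476767-50476826 (plus), and are shown since the mice are described one by one for these genes below.
Prl2c3: gtatagaagtttcggaactgttcaatgaat
Opn3: gaagcgactgagcaagacaaattattttaa
Serpinb1a: aggaagaattcacagtggaccatccgttca
Irf9: aataaaatttagctgggtgaggtattacat

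Prl2c3, of the proliferin branch of the prolactin family, was near background at P10, where 1 of 5 WT arrays and 0 of 5 KI arrays were well above it. At week 11 all arrays were, and it stood at 2.81 (WT 18), 1.38 (WT 20), 2.59 (WT 23), 3.05 (WT 32) and 3.05 (WT 33), against 0.85 (KI 15), 1.20 (KI 16), 1.04 (KI 19), 1.93 (KI 21), 0.77 (KI 22) and 1.12 (KI 34). Without the pair the WT mice lay at 2.59 or more and the KI mice at 1.20 or less, and with it the array labelled WT 20 lay below that labelled KI 21. The change was -1.47 ± 0.37 (SE) with all mice and -1.93 ± 0.24 without the pair (adjusted p = 0.00481). Its copies are nearly identical in sequence, so the array may not tell them apart. The probe named for Prl2c5, of the same family, had a week 11 difference of -1.77 ± 0.28 without the pair.

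Opn3, an opsin of the brain also called encephalopsin, had both arrays of the pair on the side of the other genotype at week 11. It passed for the change without slide 5 and was chosen after its values were seen, so it is no separate evidence about the labels. At P10 it ran from -0.40 to -0.05 in WT mice and from -0.59 to 0.05 in KI mice. At week 11 it stood at 1.37 (WT 18), -0.18 (WT 20), 1.25 (WT 23), 0.90 (WT 32) and 0.68 (WT 33), against -0.70 (KI 15), -0.45 (KI 16), -0.36 (KI 19), 1.18 (KI 21), -0.66 (KI 22) and -0.62 (KI 34). Apart from the pair, every KI mouse lay below 0 and every WT mouse above it. The change of Opn3 was -1.03 ± 0.42 (SE) with all mice and -1.56 ± 0.21 without the pair (adjusted p = 0.008).

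Serpinb1a, an inhibitor of neutrophil proteases, stood between -0.22 and 0.34 in all 10 mice of P10. At week 11 it stood at 2.89 (WT 18), 1.58 (WT 20), 2.92 (WT 23), 3.37 (WT 32) and 3.1 (WT 33), against 1.46 to 2.20 in KI mice with a median of 1.97. Without the array labelled WT 20 all WT mice lay above all KI mice, and KI mice at week 11 still lay far above P10. Its change was -0.96 ± 0.31 (SE) with all mice and -1.32 ± 0.19 without the pair (adjusted p = 0.0132). For Myct1 the change without the pair was 0.78 ± 0.12 (adjusted p = 0.0398). Traf1, an adaptor of tumour necrosis factor receptors, had a change of -1.10 without the pair (adjusted p = 0.102) and -1.25 without slide 5 (adjusted p = 0.0265), and Agt, the precursor of angiotensin made by astrocytes, had -1.21 without the pair (adjusted p = 0.0956). These calls moved with the processing: under 16 other settings, each with the pair left out, 0 to 143 probes passed for the change, and with 1 further mouse left out 2 to 15 passed. Opn3 passed in 14 of the 16 settings, Serpinb1a in 12, Prl2c3 in 10 and Myct1 in 7. With 1 of the 19 further mice left out, Prl2c3 and Opn3 passed in all 19 cases, Serpinb1a in 18 and Myct1 in 4.

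**Figure D4:**
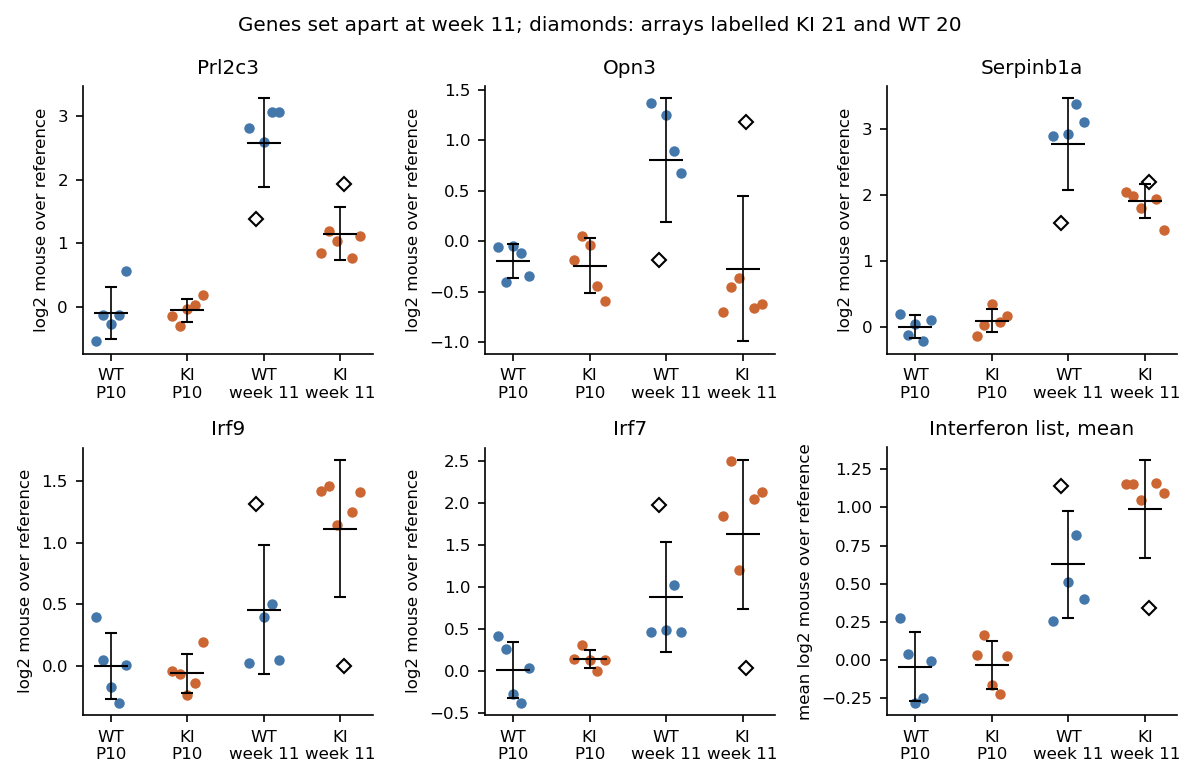
Log2 ratio to the P10 pool of each mouse for Prl2c3, Opn3, Serpinb1a, Irf9 and Irf7 and for the mean of the 27 interferon response genes, by genotype and age, with group means and SDs. The arrays labelled KI 21 and WT 20, drawn as open diamonds, lie on the side of the other genotype at week 11 in Opn3, in both Irf genes and in the interferon mean. The pair was picked from such values, so its position here is no separate evidence about the labels.

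Interferon response genes mostly stood higher in KI than in WT mice at week 11, and none passed with all 21 mice. These genes are switched on by interferons through a complex that holds IRF9, and encode antiviral and antigen-presenting proteins. Of the 27 genes of the list, all measured, 24 had a positive change, 0 passed and 0 had an unadjusted p under 0.05, where 1.88% of all genes had one with a positive change. With all mice, 8527 of all 19460 genes had a positive change and 10933 a negative one, also for the lists below. The median change of the interferon list was 0.39, against -0.04 over all 19460 genes, with a median difference of 0.01 at P10 and 0.38 at week 11. Without the pair the median was 0.68, against -0.05 over all genes. Then 14 of the 27 had an unadjusted p under 0.05 with a positive change, against 2.65% of all genes, 0 passed for the change, against 0.0156% of all genes, and 9 passed as higher in KI mice at week 11, against 0.171% of all genes. Without slide 5, 2 of them passed at week 11, against 0.11% of all genes. The median stayed between 0.23 and 0.68 over 44 settings. Bulk RNA cannot tell fewer cells of a type from less RNA per cell, here or in the lists below.

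The list mean per mouse at week 11 was 0.26 (WT 18), 1.14 (WT 20), 0.51 (WT 23), 0.82 (WT 32) and 0.40 (WT 33), against 1.15 (KI 15), 1.15 (KI 16), 1.05 (KI 19), 0.34 (KI 21), 1.16 (KI 22) and 1.10 (KI 34). The KI mice other than KI 21 lay between 1.05 and 1.16, and the WT mice other than WT 20 lay between 0.26 and 0.82. The probes that placed the pair held 2 genes of this list. The positions of the pair here, and in Irf9 and Irf7 below, are therefore no separate evidence about the labels. At P10 the list mean ran from -0.22 to 0.16 in KI mice and from -0.28 to 0.28 in WT mice. The mean of 16 markers of microglia, the immune cells of the brain, overlapped between genotypes at week 11, from -0.41 to -0.21 in KI mice and from -0.42 to -0.20 in WT mice. The upper KI end was KI 21, and the other KI mice lay between -0.41 and -0.39. Of the WT mice other than WT 20, WT 18 lay below these at -0.42 and the rest above them, at -0.26 to -0.20.

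Irf9, the DNA-binding subunit of the interferon-activated complex, stood at week 11 at 0.02 (WT 18), 1.31 (WT 20), 0.40 (WT 23), 0.50 (WT 32) and 0.05 (WT 33), against 1.42 (KI 15), 1.46 (KI 16), 1.14 (KI 19), 0.00 (KI 21), 1.25 (KI 22) and 1.41 (KI 34). The arrays labelled KI 21 and WT 20 were the lowest of the KI mice and the highest of the WT mice. Its change was 0.72 ± 0.35 (SE) with all mice and 1.15 ± 0.19 without the pair, just short of passing (adjusted p = 0.0587), while its week 11 difference of 1.10 ± 0.14 passed there (adjusted p = 0.00155). Irf7, a transcription factor that amplifies the response, ran at week 11 from 0.04 to 2.51 in KI mice and from 0.46 to 1.98 in WT mice, with a change of 1.21 ± 0.29 without the pair (adjusted p = 0.316). Rtp4, an interferon-induced gene, had 1.81 ± 0.34 (adjusted p = 0.11) and Irgm1, an immunity-related GTPase, 1.12 ± 0.21 (adjusted p = 0.118) without the pair. B2m, the light chain of class I antigen-presenting molecules, had the highest change of the list with all mice, 0.83 ± 0.43, to which P10 contributed: every KI mouse lay below every WT mouse there but the week 11 groups overlapped, at 0.45 to 2.21 in KI and -0.12 to 2.04 in WT mice.

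The response element of this pathway was searched as GAAANNGAAA on both strands of 300-base promoter windows from RefSeq (GRCm38.p6), 250 bases before to 50 after each gene's start. It was found in 9 of the 22 list genes with a window (40.9%), against 3.99% of 27025 genes and 3.44% of 32851 promoters. The list was made of genes known to respond to interferon, so the share describes the list and not the mice. A match is a run of letters and not a measured binding site. A match in Ifit1, Bst2 and B2m of the list and in Irgm1, which is not in it, is shown with the motif in capitals. The stretches lie at chr19:34640775-34640804 (plus strand), chr8:71537583-71537612 (minus), chr2:122147538-122147567 (plus) and chr11:48871431-48871460 (minus), each printed along its gene's strand.
Ifit1: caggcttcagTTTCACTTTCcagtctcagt
Bst2: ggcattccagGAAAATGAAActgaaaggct
B2m: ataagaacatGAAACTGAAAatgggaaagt
Irgm1: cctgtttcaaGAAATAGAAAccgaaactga
Ifit1, an antiviral RNA-binding protein gene, had a change of 0.75 ± 0.53 (SE) with all mice and 1.38 ± 0.33 without the pair, and Bst2, which tethers viruses to the cell surface, had 0.33 ± 0.36 and 0.76 ± 0.24. Neither change passed.

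Genes of cholesterol synthesis had mostly negative changes. Newborn neurons and myelinating glia make their own cholesterol, and the pathway stood lower at week 11 than at P10, by a median of -1.10 in WT and -1.36 in KI mice. Of its 22 genes, all measured, 2 had a positive change, 0 passed, and 4 had an unadjusted p under 0.05 with a negative change, against 3.43% of all genes. The median change was -0.34, with a median difference of 0.11 at P10 and -0.28 at week 11. Without the pair it was -0.42, with 11 genes at an unadjusted p under 0.05 and negative, against 5.36% of all genes. At week 11 without the pair, 10 of the 22 were lower in KI mice by that measure, against 5.5% of all genes. Of these lower genes 1 passed, against 0.228% of all genes. Mvd, the mevalonate diphosphate decarboxylase, stood at P10 at 0.63 to 0.89 in KI mice, all above the WT mice at 0.05 to 0.53, and at week 11 at -1.36 to -0.64 in KI and -1.21 to -0.61 in WT mice. Its change was -0.63 ± 0.20 (SE). Nsdhl, a sterol dehydrogenase, had -0.50 ± 0.18, and Insig1, which holds back the activator of the pathway, -0.52 ± 0.24. The median was negative in all 44 settings, from -0.63 to -0.22.

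Myelin genes also had mostly negative changes, and so did brainstem genes. Of the myelin and brainstem lists, only myelin had a negative median difference at week 11. Of 20 myelin genes measured, 1 had a positive change, 0 passed and 0 had an unadjusted p under 0.05 with a negative change, against 3.43% of all genes, and the median was -0.44 (0.15 at P10 and -0.23 at week 11). Without the pair the median was -0.46 over 19 genes, with 4 at an unadjusted p under 0.05 and negative, against 5.36% of all genes, and 5 lower in KI mice at week 11 by that measure, against 5.5% of all genes. Of 16 brainstem and deep nuclear genes, 15 had a negative change, with a median of -0.46, a median difference of 0.52 at P10 and 0.05 at week 11. Their list mean at P10 ran from -1.48 to 0.87 in KI and from -1.69 to 0.09 in WT mice, and at week 11 from -1.85 to -0.86 and from -1.89 to -1.05. The highest was KI 3 at 0.87, followed by WT 2 at 0.09 and KI 4 at 0.05, all of P10 and slide 2. Slc6a2 had a change of -2.06 ± 0.85 (SE). Without KI 3 the brainstem median was -0.10, and with arrays weighted by their noise the myelin median was -0.03. Of 13 choroid plexus genes, 12 had a negative change, with a median of -0.75 that was -0.15 without slide 2. Ttr had -3.55 ± 1.80, with 3 arrays lacking a usable spot, and ran from -4.02 to 2.19 over the mice. How far the amount of neighbouring tissue taken with each cerebellum contributed to these values was not tested.

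No gene of the neurons of the cerebellar cortex passed. Purkinje cell genes had a median of -0.02 over 25 measured, with 12 positive and 13 negative, and a median difference of -0.23 at P10 and -0.31 at week 11. That median changed sign in 20 of 44 settings and was -0.30 without the pair, with 4 of 22 positive. There 0 passed, 3 had an unadjusted p under 0.05 and negative, against 5.36% of all genes, and 5 were lower in KI mice at week 11 by that measure, against 5.5% of all genes, with a median week 11 difference of -0.52. Granule neuron genes had a median of 0.31, with 16 of 19 positive, which came from P10 (median difference -0.32) more than from week 11 (-0.08). It was 0.36 without the pair and positive in all but 1 of 45 settings, median centring of the arrays, where it was -0.02 and the median of all genes -0.13. The mice KI 3, KI 4 and WT 1 of P10 stood lowest in the granule list, at means of -1.51, -1.41 and -1.62, and in the Purkinje list, at -1.14, -1.22 and -1.24. Cell cycle genes, which mark the dividing precursors, had a median of 0.23 with 16 of 20 positive. That median was 0.13 without the pair, with 13 of 19 positive, and 0.04 without slide 5, with 11 of 18 positive. It was negative in 1 of 45 settings, -0.23 with weighted arrays. Bergmann glia and astrocyte genes had -0.19 over 15, and -0.37 without the pair. Without it, 6 of the 15 were lower in KI mice at week 11 at an unadjusted p under 0.05, against 5.5% of all genes, and 0 passed.

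Most lists close to ataxin-7 and to the handling of misfolded protein had a median near that of all genes. The SAGA complex had a median of 0.04 over 22 genes, with 12 positive and 1 in each direction at an unadjusted p under 0.05, against 1.88% of all genes higher and 3.43% lower. The other ataxia genes had -0.06 over 24, the proteasome 0.04 over 23, cytosolic heat shock proteins -0.12 over 14 (13 negative, where 10933 of all 19460 genes were negative), and the unfolded protein and amino acid stress genes -0.06 over 16. Oxidative phosphorylation had -0.03 over 20, insulin-like growth factor genes -0.12 over 12 and immediate early genes 0.06 over 16. Glutamate receptors, with 14 of 19 negative, and potassium channels, with 15 of 20 negative, each had a median of -0.28. Without the pair, 6 of the 19 glutamate receptors were lower in KI mice at week 11 at an unadjusted p under 0.05, against 5.5% of all genes. Of these 1 passed, against 0.228% of all genes. In all, 487 of 518 entries of 28 lists were measured, and 0 of them passed for the change with all 21 mice. With all mice, 16 lists had a median within 0.1 of the median of all genes.

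**Figure D5:**
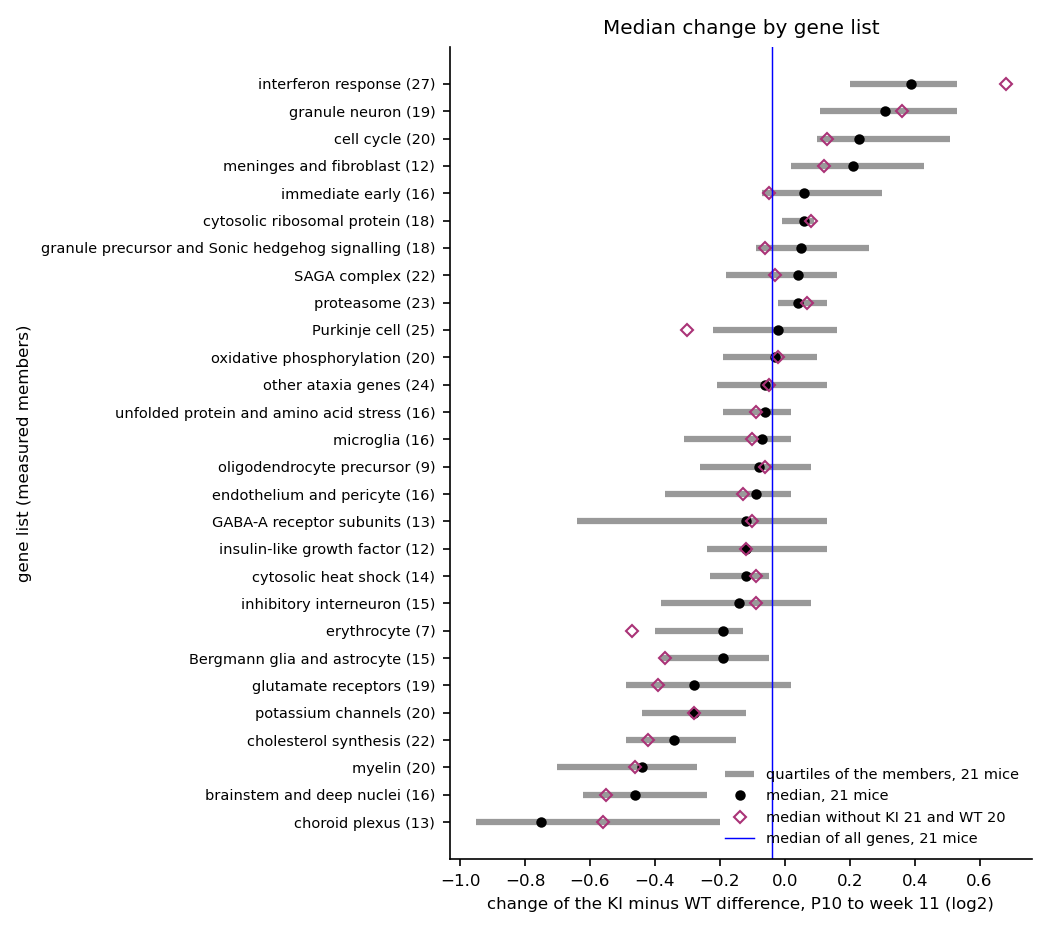
Median change of the genotype effect (points, log2 units) with quartiles (bars) for 28 gene lists, the median without the arrays labelled KI 21 and WT 20, and the median of all genes as a blue line at -0.04. The interferon list lies highest at 0.39 and the choroid plexus list lowest at -0.75, and 16 lists lie within 0.1 of all genes.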

How the data were processed

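The 21 arrays were single mice, which the labels number separately, so replicates are animals. Per the file headers, spots were read with Agilent Feature Extraction 9.5.3.1, and the authors deposited mean and background intensity of both dyes, a log10 ratio and other flags of background, saturation and outliers per spot. The log2 values in the deposited table of the series record and the log10 ratio served as alternatives. In R 4.3.3 with limma 3.58.1, intensities were background-corrected (normexp, offset 50), normalised within arrays by loess with control and outlier spots at weight 0, and averaged per probe without outlier spots. A probe entered the tests if at least 5 arrays held a Cy5 signal well above background and each group had 3 or more usable arrays. A group-means fit with empirical Bayes gave each contrast (17 residual df). SE is the moderated standard error.

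Symbols came from RefSeq through accessions for 23082 probes and from the files for 11630, and 6462 had none. Gene lists used the brightest detected probe per gene. Named genes were Atxn7, the 10 named genes of smallest p per direction, and list members. Members and lists were chosen with earlier results of these data known. The fit was tested on simulated data. The number of arrays limits precision. Some list members are not reported here.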

Additional observations from a re-analysis of the deposited data

Results flagged for a closer look

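In 10 of 107 groups of 5 or 6 mice checked, 1 mouse lay apart from the rest of its group by Dixon's criterion, which chance alone gives in about 1 of 20 groups. At week 11 the array labelled KI 21 lay apart at 1.93 in Prl2c3, at 0.57 in BB124205 and at -0.21 in the mean of the microglia list, and the array labelled WT 20 at 1.38 in Prl2c3. Also at week 11, KI 34 lay apart at -1.43 in Tanc2, and WT 23 at -0.60 in Ulbp1 and at 1.02 in Ldb3. At P10, WT 5 lay apart at -0.07 in Myct1, WT 10 at -0.10 in Tanc2 and KI 4 at 0.48 in Ccdc159. All are log2 ratios to the P10 pool.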

How the results depend on the processing

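The number of probes passing for the change of the genotype effect was 0 under every alternative run on all 21 arrays, with any single mouse left out, and with any slide left out but slide 5, which gave 4. It was 4 without the arrays labelled KI 21 and WT 20, 0 to 143 when a further setting was changed as well, and 2 to 15 when a further mouse was left out. At P10 it was 0 except for 8 without slide 2. At week 11 it was 1 with slide as a block, 1 with scan day as a block, 2 with array weights, 5 under the criterion of the series record (1490 probes), 0 to 7 with 1 mouse left out (3 without KI 21, 7 without WT 20, 1 without WT 23), 85 without slide 5 and 104 without the pair. The change of Atxn7 turned to -0.04 with slide and -0.04 with scan day as a block and to -0.07 without slide 8, and ran from -0.04 to 0.23 with 1 mouse left out (-0.04 without WT 5 of P10, -0.02 without WT 32). Signs also turned in Ccnb1 (-0.11 with array weights), Igf2r, Psma2 and Rpl30 (-0.09, -0.22 and -0.01 with median centring), Slc4a1 (0.20 with array weights; -0.48 to 0.12 with 1 mouse left out, the highest without KI 4) and Alas2 (0.37; -0.94 to 0.14, likewise). The causes were not tested. Median centring moved the median change of all genes from -0.04 to -0.13. No paired analysis was possible because every mouse has its own number and the groups share none. The omissions of slides and of the pair were chosen after seeing the data.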
